A study of Sus scrofa with 6 samples.

Results

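RSAD2 and IFIT3 are interferon-induced antiviral genes, and their transcripts are described here across 6 pig cell samples. The members were all probe sets of the Affymetrix Pig Genome Array whose platform annotation gave exactly 1 of these symbols. They were 5 of the 24123 probe sets and 2 of the 6765 annotated gene symbols: 4 probe sets for RSAD2 and 1 for IFIT3. The genes were picked with earlier results from these same arrays in view, so their own values are given as a description, without a test.

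The samples were 4 induced pluripotent stem (iPS) cell lines and 2 somatic samples, with 1 array each. Among the iPS lines, PS24 was labelled positive for SSEA1, SSEA3 and SSEA4 and 30AC5 for SSEA1, while iPF4-2 and iPSCs-w were labelled with SSEA3 and SSEA4. These stage-specific embryonic antigens are glycans on the cell surface that are used as markers of pluripotent cells. The somatic samples were PEF, embryo fibroblasts, and PAFSC, amniotic fluid stem cells. All cells were grown in DMEM with serum, and the iPS lines were kept on growth-arrested mouse embryo fibroblast feeders. The labels name no interferon treatment, infection or genotype, and do not give the reprogramming factors of the lines. Each line is 1 sample, and nothing in the labels states that cultures were repeated.

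Interferons are secreted proteins that cells release after their sensors detect viral nucleic acid. They bind cell surface receptors, JAK kinases activate transcription factors that include STAT2, and STAT2 acts with IRF9 to switch on interferon-stimulated genes. RSAD2 encodes viperin, a radical SAM enzyme that makes a chain-terminating nucleotide and restricts many viruses. IFIT3 belongs to the IFIT family, whose tetratricopeptide repeat proteins bind viral RNA; in human cells IFIT3 stabilises IFIT1. Pluripotent cells are known for a weak interferon response compared with differentiated cells.

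The deposited values are log2 values with a separate zero for each probe set. On 15.3% of probe sets, 2 of the 6 arrays had values mirrored about 0 within 0.0001, and IFIT3 was one of them, at 0.26 in PS24 and -0.26 in 30AC5. A value of 0 is therefore not read as an absent transcript. Values can be compared between arrays for 1 probe set, but not between probe sets, and a difference of 1 corresponds to a factor of 2. The number of arrays limits the precision.

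IFIT3 was high in 1 iPS line and in fibroblasts, and low in the other 3 iPS lines. Its values were 0.26 in PS24, -0.26 in 30AC5, -0.96 in iPF4-2, 4.26 in iPSCs-w, 2.64 in PEF and 1.06 in PAFSC. The iPSCs-w value stood above every other array, and PEF was next. The lowest and the highest array were iPF4-2 and iPSCs-w, the lines that share all their labels. RSAD2 had another order. Its gene probe set read -0.28 in PS24, -0.14 in 30AC5, -0.31 in iPF4-2, 0.27 in iPSCs-w, 1.11 in PEF and 2.02 in PAFSC. All 4 iPS lines lay below both somatic samples, and the line with the highest RSAD2 value was again iPSCs-w.

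**Figure D1:**
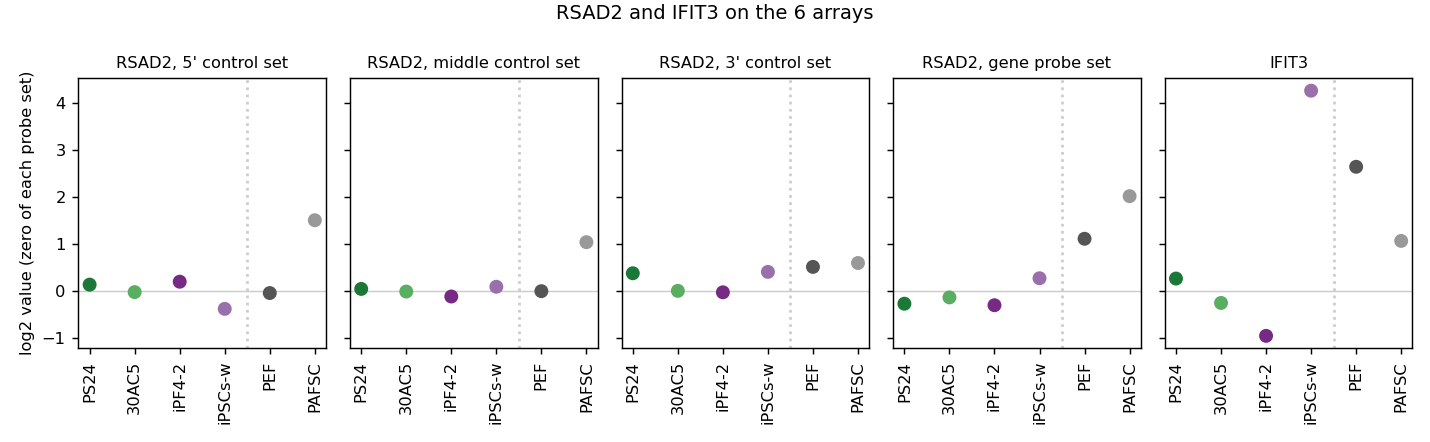
Deposited log2 value (vertical axis, zero of each probe set) of the 4 RSAD2 probe sets and the IFIT3 probe set on the 6 arrays (horizontal axis), 1 point per array, with iPS lines left of the dotted line and somatic samples right of it. IFIT3 reached 4.26 in iPSCs-w and 2.64 in PEF, while the RSAD2 gene probe set was highest in PAFSC, at 2.02.

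The arrays differed in quality in ways that touch these values. PAFSC stood apart, with an SD of 2.01 over 23999 probe sets, against 0.61 to 0.73 on the iPS arrays and 0.81 on PEF. On that array 17 of 17 Tag control probe sets, which carry synthetic tag sequences and no pig gene, read between 1.06 and 3.52, against -0.61 to 0.74 on the other 5 arrays. Endothelial markers were at 1 or more there in 12 of 12 probe sets (1.08 to 2.99), and leukocyte and macrophage markers in 10 of 11 (-1.07 to 2.60). Of all 23999 probe sets, 10536 were at 1 or more on PAFSC. On iPSCs-w the 9 bioB hybridisation controls read -3.29 to -2.21, against -0.25 to 2.22 on the other arrays, and the 6 bioC controls -0.53 to -0.36, against -0.16 to 1.73. The part of these array differences in the values of RSAD2 and IFIT3 was not tested.

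Against the markers of the labelled cell types, the fibroblast set of 13 probe sets had a median of 2.73 in PEF and 1.95 in PAFSC, and between -0.48 and 0.06 in the iPS lines. On PAFSC the Tag controls had a like median, at 1.93, as had the endothelial markers, at 1.93, and the leukocyte markers, at 2.07. The PAFSC median of 1.95 is therefore not read as a fibroblast trait. The 4 measured pluripotency genes had their highest medians in iPSCs-w, at 2.26, and iPF4-2, at 1.75; PS24 was at -0.33 and 30AC5 at -0.37, against -0.62 in PEF and 0.59 in PAFSC. In PS24 and 30AC5 these genes were thus nearer to the fibroblasts than to the other iPS lines. The iPSCs-w array, which gave the high IFIT3 reading, had high pluripotency markers and a fibroblast median of -0.48, against 0.0056 over all probe sets. There 0 of 13 fibroblast probe sets were at 1 or more, but only 1348 of all 23999 probe sets were. The epithelial markers had a median of 2.81 in iPSCs-w and 2.76 in iPF4-2. Whether the cell content bears on the IFIT3 reading was not tested.

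The spread of IFIT3 was wide for this data set. Its highest and lowest arrays differed by 5.23, and 4.03% of the 23999 probe sets in the fits had a wider range; without PAFSC 1.28% did. Relative to the mean of the iPS lines, IFIT3 was 1.82 higher in PEF, and 984 of the 23999 probe sets exceeded that. In PAFSC it was 0.24 higher, and 13997 exceeded that. All 17 Tag controls had a larger PAFSC difference than IFIT3.

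Set against the mean of the other 3 iPS lines (-0.32), IFIT3 in iPSCs-w was higher by 4.59 on the log2 scale, a factor of 24.0. With 1 array on one side there is no test of this difference. Of the 23999 probe sets, 8 had a larger difference. Against iPF4-2 alone IFIT3 in iPSCs-w was higher by 5.23, and no other probe set differed by more in that direction. The SD of this difference over all probe sets was 0.74, which serves here as a yardstick for samples of the same labels. It is a spread over probe sets in 1 pair of lines, not over repeats of IFIT3. Leaving out PS24, 30AC5 or iPF4-2 from the comparison kept the IFIT3 difference between 4.26 and 4.88.

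**Figure D2:**
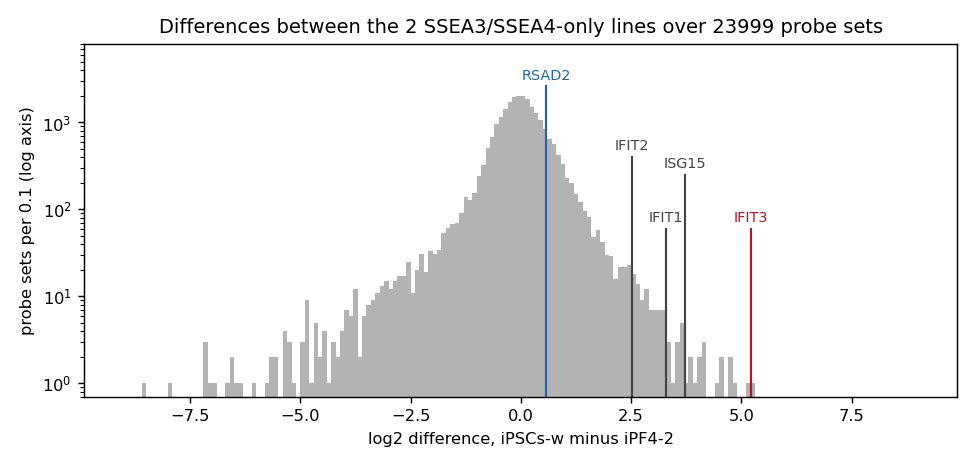
Histogram of the log2 difference iPSCs-w minus iPF4-2 over 23999 probe sets (horizontal axis, bins of 0.1; vertical axis, number of probe sets, log scale), with vertical lines at IFIT3, ISG15, IFIT1, IFIT2 and RSAD2 (line heights carry no value). IFIT3 lies at the right end, at 5.23, and RSAD2 at 0.58 inside the bulk.

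Ordered by level, the steps between neighbouring arrays can be set against that SD of 0.74. For IFIT3 the steps from iPF4-2 to 30AC5 (0.70) and from 30AC5 to PS24 (0.52) lay within it, although together they set iPF4-2 below PS24 by more than that SD. The steps from PS24 to PAFSC (0.80), from PAFSC to PEF (1.58) and from PEF to iPSCs-w (1.62) were larger. All were smaller than the 5.23 by which IFIT3 itself differed between iPSCs-w and iPF4-2, the lines of the same labels. For steps that involve PAFSC the SD of 0.74 is too narrow a measure: PEF minus PAFSC had an SD of 2.09 over all probe sets, with 70.3% past 1, and the IFIT3 step between them lay within it. For the RSAD2 gene probe set the 4 iPS lines were not separated, with steps of 0.03 to 0.41. PEF lay 0.84 above the highest iPS line. PAFSC lay 0.91 above PEF, which is within the SD of 2.09 for that pair.

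For RSAD2 the array carries 3 further probe sets, placed at the 5' end, the middle and the 3' end of the transcript and named among the array's controls. The 5' set read 0.13 in PS24, -0.03 in 30AC5, 0.19 in iPF4-2, -0.39 in iPSCs-w, -0.05 in PEF and 1.50 in PAFSC. The middle set read 0.04, -0.02, -0.12, 0.09, -0.01 and 1.04 in the same order of samples. On both, PAFSC was above the other 5 arrays, which did not separate from each other, and PEF lay among the iPS lines. The 3' set read 0.37 in PS24, 0.00 in 30AC5, -0.03 in iPF4-2, 0.40 in iPSCs-w, 0.51 in PEF and 0.59 in PAFSC, with no step above 0.37.

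The higher RSAD2 reading in PEF was thus seen by the gene probe set, where PEF was 1.22 above the mean of the iPS lines, and to a lesser size by the 3' set, at 0.32. The 5' and middle sets gave -0.03 and 0.00. PEF was above every iPS line on 2 of the 4 probe sets. The gene probe set has the suffix that Affymetrix gives to sets whose probes match more than 1 transcript. The 5' minus 3' difference of RSAD2 was -0.24 in PS24, -0.03 in 30AC5, 0.23 in iPF4-2, -0.79 in iPSCs-w, -0.56 in PEF and 0.91 in PAFSC. This 5' minus 3' difference of RSAD2 was thus lowest in iPSCs-w and highest in PAFSC. The same difference was low in PS24 for the control transcripts, at -1.43 for GAPDH, -2.03 for actin and -1.98 for EF1A. In iPSCs-w these stood at 0.12, 0.45 and 0.037, in PEF at 0.084, 0.69 and -0.40, and in PAFSC at -0.93, 2.72 and -0.70. The low 5' minus 3' differences of RSAD2 in iPSCs-w and PEF were therefore not shared by GAPDH or actin.

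PAFSC had the highest value on all 4 RSAD2 probe sets. Its difference from the mean of the iPS lines was 2.13 on the gene probe set, 1.53 on the 5' set, 1.04 on the middle set and 0.41 on the 3' set. The same difference for the 17 Tag controls ran from 0.91 to 3.51, with a median of 1.90, and was larger than that of the gene probe set in 6, the 5' set in 13, the middle set in 16 and the 3' set in 17. On PAFSC 43.6% of all probe sets were at least 1 above the mean of the iPS lines. After quantile normalization the gene probe set read 0.69 in PAFSC and 1.15 in PEF, so that the order of the somatic samples turned. In PEF the Tag controls differed from the iPS mean by -0.68 to 0.032, and 0 of 17 had a larger difference than the gene probe set, at 1.22, or IFIT3.

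**Figure D3:**
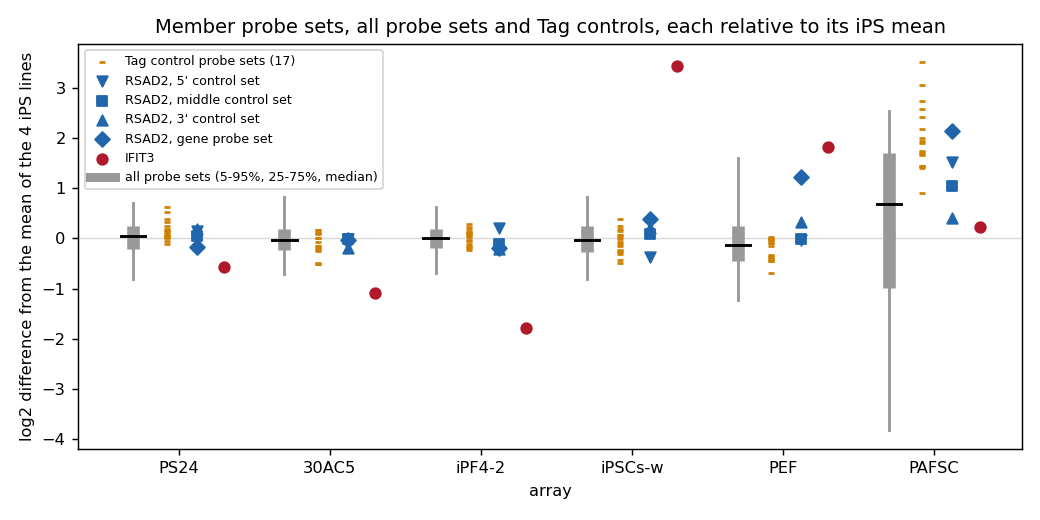
Log2 difference of each probe set from its own mean over the 4 iPS lines (vertical axis) on each of the 6 arrays: grey bars give all 23999 probe sets (thin line, 5th to 95th percentile; thick, 25th to 75th; black tick, median), orange dashes the 17 Tag controls, blue symbols the 4 RSAD2 probe sets and red circles IFIT3. On PAFSC the Tag controls lie between 0.91 and 3.51, on both sides of the RSAD2 gene probe set at 2.13, whereas in PEF that probe set, at 1.22, and IFIT3, at 1.82, lie above all of them.

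Averaged over the labelled groups, the RSAD2 gene probe set was -0.12 ± 0.26 (SD, n = 4) in the iPS lines and 1.56 in the somatic samples (n = 2), a difference of -1.68. IFIT3 was 0.83 ± 2.35 (SD, n = 4) in the iPS lines and 1.85 in the somatic samples (n = 2), a difference of -1.03 that is smaller than its SD over the iPS lines. Without iPSCs-w the IFIT3 difference was -2.17, and without PEF it was -0.24. The RSAD2 difference was -1.22 without PAFSC and -0.83 as the mean of its 4 probe sets. Of all 23999 probe sets, limma called 6 at an adjusted p under 0.05 in this comparison, or 0.025%, with 0.00833% higher and 0.0167% lower in the iPS lines.

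Between the marker classes, IFIT3 averaged 0.00 in the SSEA1-labelled lines (PS24 and 30AC5) and 1.65 in the SSEA3/SSEA4-only lines (iPF4-2 and iPSCs-w), a difference of -1.65. This average joined the highest and the lowest array: without iPSCs-w the difference was 0.96, and without iPF4-2 it was -4.26. RSAD2 averaged -0.21 in the SSEA1-labelled lines and -0.02 in the SSEA3/SSEA4-only lines, a difference of -0.19. Limma called 0% of the 23999 probe sets in this comparison, and 2.84% had an unadjusted p under 0.05.

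The nearest relatives of IFIT3 had the same high line. IFIT1, which binds viral RNA that lacks the host cap methylation, had 3 probe sets. The one most like IFIT3 read -0.01 in PS24, 0.13 in 30AC5, -0.31 in iPF4-2, 2.98 in iPSCs-w, 2.03 in PEF and 0.01 in PAFSC. A second IFIT1 probe set was 1.86 in iPSCs-w, 0.60 in PEF and 2.04 in PAFSC, and -0.84 to 0.08 in the other 3 lines. Both put iPSCs-w above the other iPS lines, by 3.04 and 2.25 over their mean. The remaining one was flat in the iPS lines (-0.04 to 0.25) and read -1.30 in PAFSC.

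IFIT2, another RNA-binding member of the family, also had 3 probe sets. The one of highest mean read -0.10 in PS24, -0.15 in 30AC5, -0.02 in iPF4-2, 2.50 in iPSCs-w, 0.34 in PEF and 2.52 in PAFSC. Another was 1.35 in iPSCs-w and -0.22 to 0.07 in the other iPS lines, and the remaining one stayed between -0.14 and 0.26 in all 4. ISG15, a ubiquitin-like protein that is attached to other proteins after interferon, read -0.16 in PS24, -0.64 in 30AC5, -0.86 in iPF4-2, 2.86 in iPSCs-w, 0.60 in PEF and 0.30 in PAFSC. Of the 7 probe sets of IFIT1, IFIT2 and ISG15, 5 were at least 1 above every other iPS line in iPSCs-w, against 2.09% of all probe sets. The comparison with iPSCs-w was chosen after the data were seen, so this share is a description. MX1 and MX2, named by the same rule, were not raised there: MX1 read 0.00 and the MX2 probe sets -0.10 and -0.34. IFIT5 and CMPK2 were sought too, but no probe set carried either symbol alone, so they were not measured.

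Few of the other antiviral effectors had this pattern. Of 31 effector genes besides RSAD2 and IFIT3, 3 were at least 1 higher in iPSCs-w than the mean of the other iPS lines, and these were ISG15, IFIT1 and IFIT2. That is 9.68%, against 6.18% of all probe sets, which were not picked for a high mean as the genes' probe sets were. A further 5 were at least 1 lower, against a background of 5.68%, and 23 lay between. The effectors had a median difference of -0.09, against -0.03 over all probe sets. RSAD2 itself was 0.51 higher in iPSCs-w, and 4138 of the 23999 probe sets exceeded that.

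MX1, a GTPase that blocks influenza viruses, read 1.15 in PS24, 0.92 in 30AC5, -1.82 in iPF4-2, 0.00 in iPSCs-w, -0.11 in PEF and -0.70 in PAFSC. It shared the low value in iPF4-2 with IFIT3 but not the high one in iPSCs-w. Its relative MX2, on the probe set of highest mean, stayed between -0.10 and 0.19 in the iPS lines and was -0.03 in PEF, against 2.09 in PAFSC. The other MX2 probe set read -0.34 to 0.25 in the iPS lines, -0.13 in PEF and 1.14 in PAFSC. OAS1, a sensor that makes the activator of RNase L, read 0.02 in iPSCs-w and -0.01 in PEF. IFI44L read -0.46 in PS24, -0.04 in 30AC5, -0.40 in iPF4-2, -0.15 in iPSCs-w, 0.87 in PEF and 1.74 in PAFSC, the order of somatic above iPS seen for RSAD2. OAS1, and IFNB1 and STAT2, were named after their values were seen.

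**Figure D4:**
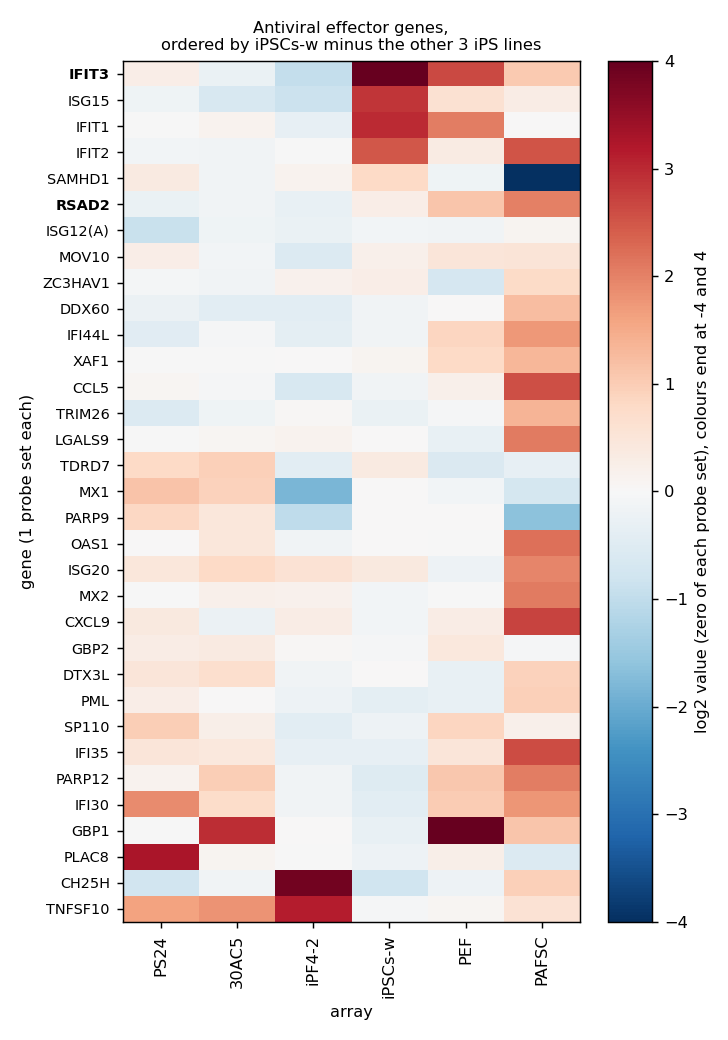
Log2 value (colour, zero of each probe set, ends at -4 and 4) of the 33 antiviral effector genes with a probe set (rows, 1 probe set per gene, RSAD2 and IFIT3 in bold) on the 6 arrays (columns), ordered by iPSCs-w minus the mean of the other 3 iPS lines. IFIT3, ISG15, IFIT1 and IFIT2 form the top 4 rows, with iPSCs-w values of 4.26, 2.86, 2.98 and 2.50.

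Other effectors were high in other single lines. GBP1, a guanylate-binding protein of the interferon gamma response, read 2.96 in 30AC5 and -0.30 to 0.00 in the other iPS lines, against 4.59 in PEF and 1.10 in PAFSC. That was its probe set of highest mean. Its other probe sets read only 0.65 and 0.20 in 30AC5, and 0.97 and 1.13 in PEF. CH25H, which makes the antiviral sterol 25-hydroxycholesterol, was 3.86 in iPF4-2 and between -0.80 and -0.14 in the other lines. PLAC8 was 3.28 in PS24 and between -0.22 and 0.12 elsewhere among the lines. CCL5, a chemokine, was -0.65 to 0.08 in the iPS lines, 0.20 in PEF and 2.59 in PAFSC. SAMHD1, which depletes nucleotides, was -0.13 to 0.78 in the lines, -0.16 in PEF and -6.00 in PAFSC.

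Upstream of these genes, the measured ligands were not higher in iPSCs-w than in the other iPS lines. IFNB1 was -0.09 to 0.39 in PS24, 30AC5 and iPF4-2 and -0.23 in iPSCs-w, and IFNA1 was 0.00 to 0.27 in those 3 lines and -0.33 in iPSCs-w. IFNG, the gamma interferon, was 4.71 in iPF4-2, the line with the lowest IFIT3, and -0.63 in iPSCs-w. IFNAR1, a chain of the type I receptor, read 0.21 in PS24, -0.32 in 30AC5, -1.53 in iPF4-2, -0.93 in iPSCs-w, 1.24 in PEF and -0.21 in PAFSC. Its partner IFNAR2 read 0.59, 1.08, -0.17, -0.48, 1.79 and -0.31 in that order. IFNGR1, a chain of the gamma receptor, was -2.25 in iPSCs-w and 0.48 in PEF. IL10RB, shared by the lambda receptor, was 1.02 in 30AC5 and -0.14 to 0.32 in the other lines. PEF had the highest reading of both type I receptor chains.

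Among the signalling genes, IRF9, the DNA-binding partner of STAT2, read -0.25 in PS24, 0.25 in 30AC5, -0.70 in iPF4-2, -0.44 in iPSCs-w, 1.35 in PEF and 0.96 in PAFSC. STAT2 was 0.29, -0.29, -0.12, 0.68, 0.62 and -0.06 in that order. IRF1, an interferon-induced transcription factor, was 2.14 in PEF, 1.00 in PS24 and -0.49 in iPSCs-w. USP18, which removes ISG15 from proteins and dampens the receptor, was 1.97 in PEF, 1.54 in 30AC5 and -0.12 in iPSCs-w. JAK2 was -0.86 to 0.14 in the lines, -0.28 in PEF and 2.44 in PAFSC. SOCS1, an inhibitor of JAK kinases, was 1.49 in iPSCs-w on its probe set of highest mean and -0.07 to 0.30 in the other lines. Its other probe sets read 1.07 and 0.25 in iPSCs-w, and the latter was higher in PS24, at 0.84. SOCS1 was the 1 signalling gene of 16 at least 1 higher in iPSCs-w, or 6.25%, near the 6.18% of all probe sets.

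In PEF 9 of the 62 other interferon genes were at least 1 higher than the mean of the iPS lines, or 14.5%, against 9.11% of all probe sets. They were IFNAR1, IFNAR2, IFNGR1, IRF1, IRF9, USP18, IFIT1, IFI44L and GBP1, and their differences ran from 1.13 for IFI44L to 3.93 for GBP1. The other GBP1 probe sets gave 0.93 and 1.45. RSAD2 at 1.22 and IFIT3 at 1.82 had differences of like size. IFNG and TNFSF10, a death ligand, were at least 1 lower in PEF, or 2 of 62, against a background of 7.66%. These names follow from their values in PEF, with 1 array and no test. The genes' probe sets were also picked for a high mean, while those of the background were not.

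Of the sensors of viral nucleic acid, EIF2AK2 and MAVS varied most among the iPS lines, and neither was highest in iPSCs-w. EIF2AK2, the RNA-activated kinase PKR, was 1.28 in iPF4-2, -0.19 in iPSCs-w, -0.03 in 30AC5 and 0.03 in PS24. MAVS, the adaptor of the RNA helicase sensors, was -0.09 to 1.00 in the lines and 0.66 in PEF. TBK1, the kinase downstream of them, was -0.06 to 0.51 in the lines and 0.34 in PEF. The probe sets of highest mean for TLR8, TLR9 and MYD88 stayed between -0.22 and 0.49 in the lines and read 2.37 to 3.12 in PAFSC. None of the 8 measured sensors was at least 1 higher in iPSCs-w or in PEF, against 6.18% and 9.11% of all probe sets. With 8 genes this count cannot be told apart from those shares.

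In the fit over all genes, limma called 0 of the 62 other interferon genes higher and 0 lower in the iPS lines than in the somatic samples, with 6 at an unadjusted p under 0.05, against 13.7% of all probe sets. The smallest adjusted p was 0.288 (limma), for IFI44L, at -1.57 (SE 0.48). Of the 62 genes 14 were positive and 48 negative, and of all probe sets 9393 were positive and 14606 negative. The genes' probe sets were picked for a high mean, and those of the background were not. With the mean of each gene's probe sets the list median was -0.53. The list median was -0.58, against -0.34 over all probe sets, and without PAFSC it was 0.044. By role, the medians were -1.01 for the 8 sensors, -0.02 for the 7 ligands and receptors, -0.82 for the 16 signalling genes and -0.40 for the 31 effectors. The sensor and signalling medians rested on PAFSC: PEF minus the iPS mean had medians of 0.043 for sensors and -0.055 for signalling genes, against 1.84 and 1.26 for PAFSC. IRF9 was at -1.44 (SE 0.49, limma adjusted p = 0.316). The largest differences among effectors were 3.38 for SAMHD1 (SE 1.33), which rests on its PAFSC value of -6.00, and -2.18 for GBP1 (SE 1.17).

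Between SSEA1-labelled and SSEA3/SSEA4-only lines limma likewise called 0 of the 62 in either direction, with 1 at an unadjusted p under 0.05. The list median was 0.13, against 0.0051 over all probe sets, with 36 positive and 26 negative. Ligands and receptors had a median of 0.73, with 6 of 7 positive, among them IFNGR1 at 1.63 (SE 1.02), IFNAR1 at 1.18 (SE 0.73) and IFNAR2 at 1.16 (SE 0.81). Among the signalling genes IRF1 differed by 1.64 (SE 1.03), JAK1 by 1.02 (SE 0.84) and IRF2 by 0.83 (SE 0.92). Other probe sets of JAK1 and IRF2 gave 3.04 and 2.59 and did not pass either. A further IRF2 probe set gave 0.05. MX1 differed by 1.95 (SE 0.77) and PLAC8 by 1.82 (SE 1.02). IFIT1, at -1.27 (SE 1.15), IFIT2, at -1.37 (SE 1.03), and ISG15, at -1.40 (SE 1.13), had the sign of IFIT3. In each of these 3 genes iPSCs-w and iPF4-2 lay apart, by 3.29, 2.51 and 3.72.

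On the pig chromosome, IFIT3 lies between IFIT2 and IFIT1 in the RefSeq annotation of Sscrofa11.1, with LIPA and CH25H beyond IFIT2. LIPA, a lysosomal lipase, was lowest among the iPS lines in iPSCs-w on both of its probe sets (-1.66 and -0.66). FAS, a death receptor farther along, was -0.11 in iPSCs-w. The high iPSCs-w reading thus held for IFIT1, IFIT2 and IFIT3 and not for the measured protein-coding genes on the LIPA side. On the other side, PANK1 had 1 of 3 probe sets high in iPSCs-w, at 1.23, and the others at -0.03 and 0.19. The nearest measured neighbour of RSAD2 was ID2, a transcriptional inhibitor, at 0.00 to 0.98 in the iPS lines, 1.61 in PEF and 2.23 in PAFSC. These neighbours were named after the values had been seen.

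Across the 6 arrays, the genes whose pattern was most like that of IFIT3 were THBD (r = 0.98), TGFB2 (0.96), ISG15 (0.96), IFIT1 (0.96), ENPP6 (0.94) and NANOS1 (0.92), by Pearson correlation among 8296 probe sets with an SD of at least 0.5. Only 8 probe sets reached a correlation of 0.9 or more. ISG15 and IFIT1 were among these 6, but IFIT3 itself was picked with these arrays in view. Over the 4 iPS arrays 0 of the 6 stayed among the nearest. THBD, the anticoagulant receptor thrombomodulin, was 2.59 in iPSCs-w, 1.42 in PEF and -0.62 to -0.25 in the other lines. TGFB2, a growth factor, was 2.29 in iPSCs-w and 2.10 in PEF. Without PAFSC, IFIT1 became the most like and THBD stayed among the 6 nearest.

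For RSAD2 the most similar genes were SLC25A14, XAF1, IL1R1, HDLBP, DHRS11 and PPP3CB, each with r = 0.99, and 263 probe sets reached 0.9. Of these XAF1, a pro-apoptotic gene that interferon induces, read 0.00 in PS24, -0.03 in 30AC5, 0.00 in iPF4-2, 0.12 in iPSCs-w, 0.80 in PEF and 1.34 in PAFSC. IL1R1, the interleukin-1 receptor, was 1.90 in PEF and 2.71 in PAFSC. IFIT1 (0.16), ISG15 (0.24) and MX1 (-0.23) had low correlations with RSAD2 over the 6 arrays. Without PAFSC they were 0.73, 0.45 and -0.01, and over the 4 iPS arrays 0.98, 0.95 and 0.13. Over those 4 arrays 426 of the 8296 probe sets reached 0.9 with RSAD2. There iPSCs-w was the highest line for RSAD2, IFIT1 and ISG15 alike, and the RSAD2 values were not separated. The correlation between the RSAD2 gene probe set and IFIT3 was 0.37 over 6 arrays and 0.69 without PAFSC. These correlations rest on 6 points, of which PAFSC is the widest, and on arrays that share 1 unknown normalization.

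**Figure D5:**
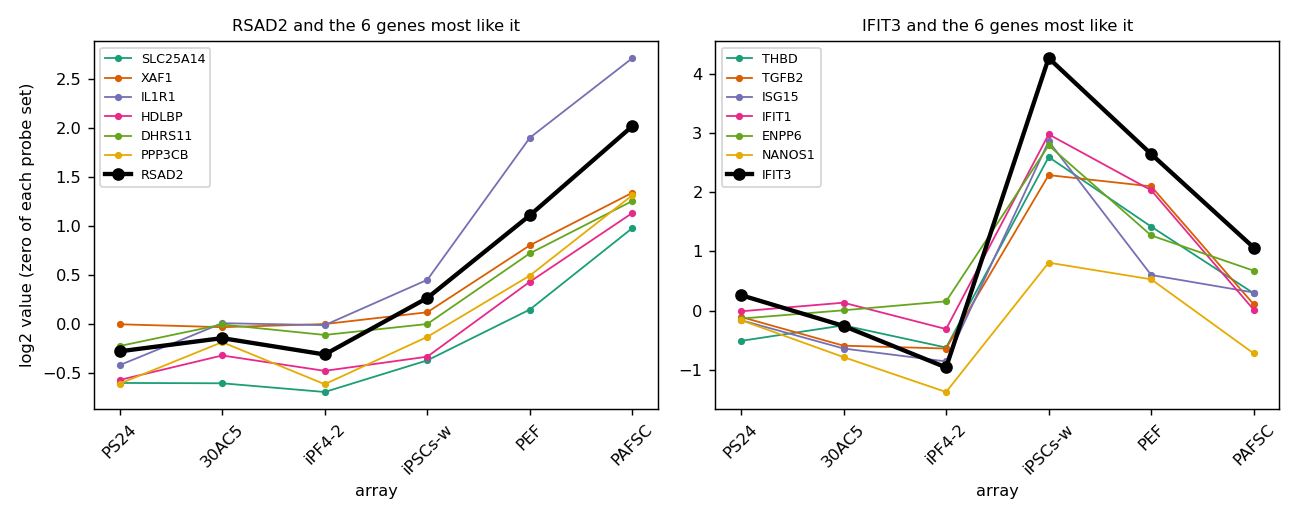
Log2 values (vertical axes, zero of each probe set) on the 6 arrays (horizontal axes) of RSAD2 (left, black) and IFIT3 (right, black) with the 6 genes of highest Pearson correlation to each (coloured lines; lines join arrays only to guide the eye). The genes on the left are highest in PAFSC, where RSAD2 is at 2.02, and next in PEF, where it is at 1.11; those on the right are highest in iPSCs-w, where IFIT3 is at 4.26.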

How the data were processed

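Per the labels' protocols, labelled cRNA was hybridised to the Affymetrix Pig Genome Array. The authors deposited log2 values, 0 of them missing. The software, background correction, normalization and baseline behind them: not given in the sources used here. Array medians were 0.00 to 0.05 in the iPS lines, -0.06 in PEF and 0.70 in PAFSC.

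The 124 array controls, among them 3 RSAD2 probe sets, stayed out of the fits. Limma 3.58.1 (R 4.3.3) compared iPS with somatic arrays and, with 3 classes, the SSEA groups; tests were two-sided, and p-values were adjusted by Benjamini-Hochberg across 23999 probe sets at 0.05. The fits were tested on simulated data. A gene takes its probe set of highest mean. As each probe set has its own zero, this favours sets that read high on some array and is not a choice by signal. For TYK2 the set taken gave an iPS minus somatic difference of -0.80, and its others gave -0.73, 1.55 and 1.23. The shares over all probe sets carry no such choice. Of 134 listed interferon genes besides the members, 62 were measured.

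Named genes were the 4 per role list with the largest difference in each contrast, the IFIT family, ISG15, MX1, MX2, and the 6 genes most like each member; others were singled out after their values were seen. Members and lists were chosen with earlier results of these data known, and single-array comparisons after seeing the data. Alternatives covered normalization (quantile or median), a filter by mean (lowest 40% left out) and trended robust eBayes. Averaged probe sets, rank correlation, and each sample left out were also run. As each probe set has its own zero, the filter by mean removed sets that read low against that zero, not sets of low signal. P-values reflect only spread between these arrays, which may be technical. Promoter motifs were not analysed here.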

Additional observations from a re-analysis of the deposited data

Results flagged for a closer look

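Among 51 named probe sets, 9 (17.6%) had 1 of the 4 iPS lines set apart from the other 3 by Dixon's ratio of gap to range, against 5.67% of all 23999 probe sets; chance flags about 1 in 20 groups. Of these, 4 were high in iPSCs-w: IFIT1 at 2.98, IFIT2 at 2.50, THBD at 2.59 and ENPP6 at 2.79. In iPF4-2 there were 3: IFNG at 4.71, CH25H at 3.86 and EIF2AK2 at 1.28. GBP1, on its probe set of highest mean, stood apart in 30AC5 at 2.96 and PLAC8 in PS24 at 3.28. IFIT3 had a ratio of 0.766 and ISG15 of 0.813, short of the critical value. THBD and ENPP6 were named for their likeness to IFIT3, and IFNG, CH25H, EIF2AK2, GBP1 and PLAC8 for large differences among these same lines. The share flagged is therefore not comparable with the chance rate.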

How the results depend on the processing

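For IFIT3, iPSCs-w stayed above the other iPS lines under all 5 alternatives run (4.26 to 5.20), and iPS minus somatic stayed negative under all 8 (-2.17 without iPSCs-w to -0.24 without PEF). Its SSEA difference ran from -4.26 without iPF4-2 to 0.96 without iPSCs-w. For RSAD2, iPS minus somatic was -1.10 after quantile normalization, -1.38 after median centring and -0.83 as the mean of its probe sets, and -2.13 (without PEF) to -1.22 (without PAFSC) with samples left out. Its SSEA difference ran from -0.48 without iPF4-2 to 0.10 without iPSCs-w. Its iPSCs-w difference was 0.89 after quantile normalization and 0.11 as the mean of its probe sets.

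Limma's 6 calls for iPS against somatic became 1 after median centring, 35 with the filter by mean and 100 with trended robust eBayes. With samples left out they ran from 0 (without PS24, 30AC5 or iPSCs-w) to 14303 without PEF, where PAFSC alone is the somatic sample and is assumed to vary like the other groups; there were 136 without PAFSC and 1 without iPF4-2. The called interferon genes ran from 0 to 32, with 32 reached without PEF. Their list median was -0.27 after quantile normalization, -0.28 after median centring, -0.85 with the filter, and -1.04 (without PEF) to 0.044 (without PAFSC). For the SSEA contrast the 0 calls became 90 after quantile normalization, 44 with the filter and 43 with trended robust eBayes, and 0 to 4 with samples left out. Of the 6 genes most like RSAD2, 1 was shared under Spearman correlation, 1 without PAFSC and 0 over the 4 iPS arrays; of those most like IFIT3, 5, 2 and 0 were. The cause of these changes was not tested.

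Averaging a gene's probe sets gave list medians but no count of calls. No paired analysis was possible because the labels give no replicate numbers that pair samples across groups. Signal over background is not known from these values, and 1 array per line limits every statement about a single line.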
